A study of Mus musculus with 6 samples.

Results

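Interferon-stimulated genes and the genes of interferon signalling were followed in 2 sorted fractions of a mouse mammary carcinoma cell line. The group holds 45 genes, given by symbol in a list drawn up with earlier results of these data known, of which 44 name an annotation among the 14766 gene annotations of the deposited libraries. The remaining gene, Trim30a, appears under its older symbol Trim30 and is described apart. Of the 45 genes, 13 encode parts of the signalling chain (4 receptor chains, 3 kinases and 6 transcription factors) and 32 are genes that interferons induce.

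Mvt1 is an established mammary carcinoma line of the FVB/N strain, derived from a mouse that carried c-Myc and Vegf transgenes driven in mammary epithelium by the MMTV promoter, and both groups share this origin. Flow sorting parted the line into cells with CD24 on their surface (CD24+) and cells without it (CD24-). The line was cultured in medium with serum, penicillin and streptomycin, both groups were grown in serum-containing medium, and no interferon or other treatment is named for either. RNA came from 3 adherent plates of each group, so p-values and errors measure the spread between plates of 1 cell line, and CD24 cannot be told apart from other differences between the sorted groups. Each library was summed to reads per annotated gene, from 9046025 to 25692147 mapped reads, of which 71.8% to 74.4% lay in a named gene. Values are CPM, the count scaled to a library of a fixed number of gene reads, after the TMM scaling of edgeR. CPM is not corrected for gene length, so it is compared between libraries and not used to rank the levels of genes. Where CPM is summed over genes, the part of a gene in the sum is a share of reads and depends on its length. Cd24a, the gene of the sorted protein, had 12.1, 11.5 and 6.99 CPM in CD24- libraries and 73.3, 85.5 and 72.5 CPM in CD24+ libraries, in replicate order as throughout, in the direction of the labels. Krt8 and Krt18, keratins of luminal epithelium, summed with 4 further epithelial markers to between 1834 and 2028 CPM in CD24- cells and between 756 and 899 CPM in CD24+ cells, while Epcam, Cdh1, Krt5 and Krt14 had fewer than 10 reads each in all 6 libraries.

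Interferons are secreted cytokines through which cells warn each other of viral infection. Type I interferons bind the receptor chains Ifnar1 and Ifnar2, and interferon gamma binds Ifngr1 and Ifngr2. Kinases of the JAK family bound to these chains then phosphorylate STAT proteins, which enter the nucleus with or without Irf9 and switch on genes through a pair of promoter elements, the interferon-stimulated response element (ISRE) and the gamma-activated site (GAS). The induced proteins sense viral RNA, block viral entry or translation, and tag or cleave proteins, and many of them are also present at a low level in unstimulated cells.

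More of the induced genes were called higher than lower in CD24+ cells, and 3 of the genes that carry the signal were called. Of the 44 annotated genes, 41 passed the read filter and entered the quasi-likelihood test of edgeR, and 20 passed as higher in CD24+ cells and 3 as lower at an adjusted p below 0.05 (Benjamini-Hochberg over all tested genes). The largest increases were those of Rtp4, Ifit1, Oasl2, Ifi44 and Ifit2, and the genes called lower were Trim25, Isg20 and Oasl1. The 2 groups differed widely in all genes: of 11125 tested genes 46.1% were called, 23.8% higher and 22.3% lower. Among the interferon genes 56.1% were called, 48.8% higher and 7.32% lower, so the share called higher lay above that of all genes and the share called lower beneath it. The median log2 fold-change of CD24+ over CD24- was 0.55 over the 41 genes and 0.02 over all genes tested. By library, the median log2 ratio of the 41 genes to their CD24- mean was 0.11, 0.07 and -0.21 in CD24- cells. It was 0.73, 0.18 and 0.65 in CD24+ cells, so CD24+ replicate 2 lay near CD24- replicate 1. In an estimate from median coverage in place of summed reads, tested with limma, the median was 0.068 over 34 interferon genes, and 29.4% of them were called higher and 5.88% lower, against 13.1% and 13.5% of all genes. These are not the same genes as the 41. Rtp4, Ifit1, Ifi44, Ifih1, Irf7, Rsad2, Ifitm1 and Xaf1 had no value there, and the 34 include a gene outside the 41. In such bulk libraries a larger share of cells with a transcript cannot be told apart from more of it per cell. The CD24- and CD24+ values did not overlap for 53.7% of the interferon genes and for 57.3% of all genes.

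Signalling and induced genes are given side by side, and the difference between them was not tested. Of the 13 signalling genes, 3 were called higher and 0 lower, with a median log2 fold-change of 0.13. The 23.1% called higher was close to the 23.8% of all genes, and no signalling gene was called lower, against 22.3% of all genes. Of the 28 tested induced genes, 17 were called higher (60.7%) and 3 lower (10.7%), with a median of 0.62. Ifit1 and Rtp4 passed the filter on low counts through the CD24+ libraries alone, so that they could hardly have entered the test without being higher there. The filter asks for 3 libraries over its level, and Ifi44 and Oasl2 had 1 and 2 such CD24- libraries. Both therefore needed CD24+ libraries to be tested, which limits their calls in the same way, Ifi44 more than Oasl2. Ifit3, Mx1 and Mx2 had too few reads to be tested. The 18 tested genes that were not called had log2 fold-changes between -0.22 and 0.80, 14 of them above 0 and 4 below.

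**Figure D1:**
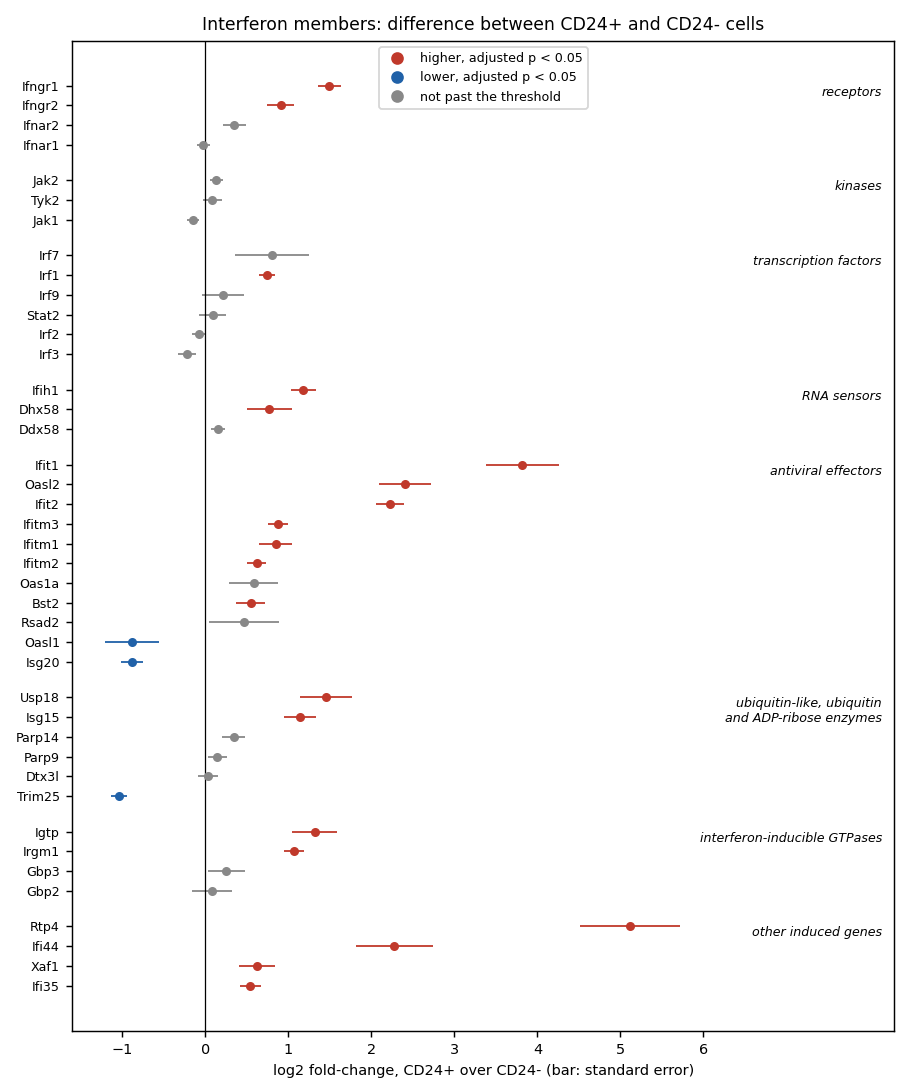
Log2 fold-change of CD24+ over CD24- for the 41 tested interferon genes (x axis), grouped by role from top to bottom, with bars of 1 standard error from edgeR. Points right of 0 are higher in CD24+ cells, colour gives the call, and the kinases and most transcription factors lie near 0 while Rtp4, Ifit1, Oasl2, Ifi44 and Ifit2 lie above 2.

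The promoters of these genes were searched for the 2 elements in RefSeq windows of the GRCm38.p6 assembly, each from 250 bases before to 50 bases after a gene start. The windows of 38 of the 45 genes were used, and those of Dhx58, Mx1, Mx2, Usp18, Parp9, Parp14 and Rtp4 were not analysed here. The ISRE core was searched as GAAANNGAA and the GAS as TTCNNNGAA, on both strands. The ISRE core occurred in 8.56% of all 32851 windows and in 44.4% of the windows of the interferon genes, and 19 of the 38 genes held it. It was found in 17 of 25 induced genes and in 2 of 13 signalling genes, Irf2 and Stat2. By call, 9 of 17 genes called higher, 1 of 3 called lower and 7 of 16 not called held it. Ifit3, which was not tested, and Trim30a, which was tested under its older symbol alone, also held it. The GAS occurred in 8.3% of all windows and in 24.4% of those of the interferon genes, and in Bst2 and Ifitm3 it overlapped an ISRE core.

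The 140 bases before the gene start are shown for 5 genes that were higher in CD24+ cells (Ifit1, Isg15, Bst2, Igtp and Irgm1), for Trim25, which was lower, and for Gbp2, which was not called, so that the same element can be seen in each outcome. Capitals mark the ISRE core, on either strand. The stretch of Ifit1 is chr19:34640749-34640888 (plus strand), that of Isg15 chr4:156200819-156200958 (minus strand), that of Bst2 chr8:71537473-71537612 (minus strand), that of Igtp chr11:58199416-58199555 (plus strand), that of Irgm1 chr11:48871421-48871560 (minus strand), that of Trim25 chr11:88999263-88999402 (plus strand) and that of Gbp2 chr3:142620523-142620662 (plus strand), all in GRCm38.p6 and read 5′ to 3′ along the gene.
Ifit1: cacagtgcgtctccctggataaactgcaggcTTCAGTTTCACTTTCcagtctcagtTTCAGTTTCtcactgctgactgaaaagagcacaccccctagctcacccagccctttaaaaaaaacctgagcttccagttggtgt
Isg15: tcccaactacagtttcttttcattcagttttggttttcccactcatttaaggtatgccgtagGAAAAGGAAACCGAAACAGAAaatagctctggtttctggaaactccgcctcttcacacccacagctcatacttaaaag
Bst2: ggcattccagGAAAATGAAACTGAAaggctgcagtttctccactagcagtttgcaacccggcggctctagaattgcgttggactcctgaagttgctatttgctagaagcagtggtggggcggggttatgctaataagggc
Igtp: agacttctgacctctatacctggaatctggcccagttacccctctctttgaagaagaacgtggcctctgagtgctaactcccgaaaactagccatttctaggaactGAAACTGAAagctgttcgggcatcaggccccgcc
Irgm1: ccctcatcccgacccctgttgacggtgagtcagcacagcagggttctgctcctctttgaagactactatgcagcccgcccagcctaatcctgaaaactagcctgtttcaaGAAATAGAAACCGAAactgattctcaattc
Trim25: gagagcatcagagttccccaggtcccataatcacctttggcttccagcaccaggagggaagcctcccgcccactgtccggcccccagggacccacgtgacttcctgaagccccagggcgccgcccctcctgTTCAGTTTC
Gbp2: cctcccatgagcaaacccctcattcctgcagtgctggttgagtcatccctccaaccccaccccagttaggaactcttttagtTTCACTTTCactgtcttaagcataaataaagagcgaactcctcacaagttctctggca
Ifit1 and Isg15 each hold 3 matches, Bst2 and Irgm1 hold 2 overlapping ones, and Igtp, Trim25 and Gbp2 hold 1. For Irf1, the one transcription factor called higher, the matching stretch is shown with its GAS in capitals (chr11:53769874-53770013, GRCm38.p6, plus strand).
Irf1: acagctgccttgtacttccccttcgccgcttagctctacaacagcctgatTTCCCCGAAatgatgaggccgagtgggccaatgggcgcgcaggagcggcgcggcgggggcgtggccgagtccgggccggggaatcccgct

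**Figure D2:**
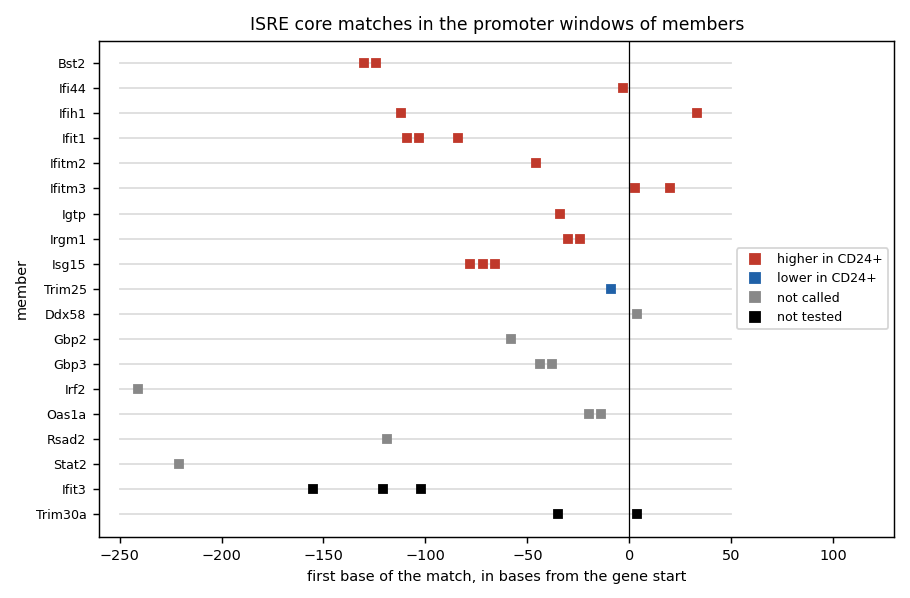
Position of each ISRE core match (x axis, first base of the match in bases from the gene start, over the whole window) in the 19 interferon genes that hold one, with colour for the call of the gene. The genes are 9 called higher, 1 called lower, 7 not called and 2 drawn as not tested, and apart from Irf2 and Stat2 their matches start between -155 and 33. Those 2 are Ifit3 and Trim30a, which was called higher under its older symbol Trim30.

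Among the 4 receptor chains, both for interferon gamma were higher in CD24+ cells and neither for type I interferon was called (50% called, against 46.1% of all genes). Ifngr1, the ligand-binding chain, had 21.7, 16.7 and 21.9 CPM in CD24- cells and 61.0, 48.7 and 60.03 CPM in CD24+ cells. Its groups lay far apart, with a log2 fold-change of 1.49 (standard error, SE, 0.14, adjusted p = 1.07e-05 by edgeR), the only one above 1 among the 13 signalling genes. Ifngr2, the chain that brings in Jak2, had 11.3, 10.6 and 9.47 CPM in CD24- cells and 22.8, 15.7 and 21.1 CPM in CD24+ cells (a log2 fold-change of 0.91, SE 0.16, adjusted p = 0.00125 by edgeR). Its groups did not overlap, and CD24+ replicate 2 was nearest to the CD24- values. Ifnar1, the receptor chain with the most reads, had 89.1, 84.7 and 85.2 CPM in CD24- cells and 89.98, 85.1 and 80.4 CPM in CD24+ cells, groups that overlap throughout. Its log2 fold-change was -0.02 (SE 0.08, adjusted p = 0.825 by edgeR). Ifnar2 had a log2 fold-change of 0.35 (adjusted p = 0.0618, edgeR), which passed the threshold without CD24- replicate 2 (0.49, adjusted p = 0.0193) without CD24+ replicate 2 (0.41, adjusted p = 0.0498), without a filter on low counts (0.35, adjusted p = 0.0452) and when identical sequences were counted a single time (0.40, adjusted p = 0.0452, edgeR), and 22.9% of its reads also matched transcripts of other genes. The reads of Ifngr1 lay on chromosome 10 between 19311783 and 19330032 of the mm9 assembly, and 93.6% of them matched GENCODE M21 transcripts of Ifngr1 alone, so that they are largely exonic. The call for Ifngr2 was lost in an estimate after the study's own steps, the median read coverage of a transcript after quantile normalization with 10 added (log2 fold-change 0.04, adjusted p = 0.574, limma), called the estimate from median coverage here.

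The 3 kinases that these receptors use showed no called difference (0%, against 46.1% of all genes). Jak1, the kinase shared by both receptor types, had 339, 340 and 314 CPM in CD24- cells and 286, 303 and 306 CPM in CD24+ cells. Although every CD24+ value was lower, the log2 fold-change was -0.15 (SE 0.08, adjusted p = 0.132 by edgeR). Jak2, which serves the interferon gamma receptor, had a log2 fold-change of 0.13, and Tyk2, which serves the type I receptor, one of 0.08, with adjusted p = 0.172 and 0.575 (edgeR). These are small differences beside the 0.91 and 1.49 of the interferon gamma receptor chains.

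Among the 6 transcription factors only Irf1 was called (16.7%, against 46.1% of all genes). Irf1, an activator that interferon gamma induces through a GAS, had 32.3, 34.8 and 31.2 CPM in CD24- cells and 50.8, 54.2 and 59.1 CPM in CD24+ cells. Its log2 fold-change was 0.74 (SE 0.10, adjusted p = 1.32e-04 by edgeR), and with any one library left out it stayed between 0.67 and 0.79. Irf3, the factor with the most reads and an activator of interferon genes after viral sensing, had 91.0, 89.7 and 81.0 CPM in CD24- cells and 81.5, 63.1 and 80.8 CPM in CD24+ cells, overlapping groups with a log2 fold-change of -0.22 (adjusted p = 0.125, edgeR). Stat2 and Irf9, which form the complex that binds the ISRE, had log2 fold-changes of 0.09 and 0.21, and Irf2, a relative of Irf1 known as its antagonist, one of -0.08, none of them called. Irf7, itself interferon-induced, had few reads and 1.37, 1.71 and 1.47 CPM in CD24- cells against 3.78, 1.13 and 3.51 CPM in CD24+ cells. The low value of CD24+ replicate 2 spread its CD24+ group across the CD24- values, and the log2 fold-change of 0.80 was not called (adjusted p = 0.162, edgeR), but it reached 1.24 without that library (adjusted p = 0.00585). Without any one CD24- library it lay between 0.74 and 0.91 and was not called.

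Of the RNA sensors, Ifih1 was the clearest. Ifih1 encodes MDA5, which recognises long double-stranded RNA in the cytosol, and had 6.21, 6.06 and 5.86 CPM in CD24- cells and 13.7, 12.1 and 15.3 CPM in CD24+ cells. The CD24- values lay within 1 CPM of each other and the CD24+ values all lay higher, for a log2 fold-change of 1.18 (SE 0.15, adjusted p = 1.40e-04 by edgeR). Ddx58, which encodes RIG-I, a sensor of RNA ends, had 86.9, 79.3 and 74.1 CPM in CD24- cells and 89.98, 84.5 and 93.1 CPM in CD24+ cells, a log2 fold-change of 0.15 that was not called (adjusted p = 0.172, edgeR). Dhx58, which encodes LGP2, a regulator of both, had 4.84, 4.93 and 3.38 CPM in CD24- cells and 9.44, 4.91 and 8.80 CPM in CD24+ cells. Its groups overlapped at CD24+ replicate 2, and its log2 fold-change of 0.77 was called at an adjusted p of 0.0413 (edgeR). The call was lost without any one of the 3 CD24- libraries or of CD24+ replicates 1 and 3, with log2 fold-changes of 0.61 to 0.87 there, and in the estimate from median coverage (0.07, adjusted p = 0.420, limma).

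Of the antiviral effectors, 7 were called higher and 2 lower of 11 tested (81.8% called, against 46.1% of all genes). Ifit1, which binds viral RNA that lacks the host cap methylation, had 3, 3 and 1 reads in CD24- cells and 24, 45 and 84 reads in CD24+ cells. These are 0.316, 0.284 and 0.113 CPM against 3.78, 2.54 and 4.40 CPM, a log2 fold-change of 3.82 (SE 0.44, adjusted p = 5.57e-05 by edgeR). The CD24- level rests on 1 to 3 reads a library, so its counting error is large, and the groups did not overlap. The reads of Ifit1 lay on chromosome 19 between 34715348 and 34724146 of mm9, and 97.5% of them matched transcripts of Ifit1 alone.

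Ifit2, a relative of Ifit1 with many more reads, had 13.7, 11.8 and 8.68 CPM in CD24- cells and 53.0, 45.4 and 61.4 CPM in CD24+ cells. This was a 4.67-fold difference (log2 fold-change 2.22, SE 0.17, adjusted p = 3.17e-06 by edgeR), and the lowest CD24+ value lay well above the highest CD24- value. Ifit3, the partner of Ifit1 and Ifit2, could not be tested, with 1, 5 and 2 reads in CD24- cells and 15, 15 and 44 reads in CD24+ cells, and 57.3% of its reads also matched transcripts of other genes. Ifit1, Ifit2 and Ifit3 are neighbours on chromosome 19, and each had more CPM in every CD24+ library than in any CD24- library.

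The oligoadenylate synthetase family did not move as one. Oasl2 had 1.58, 1.61 and 0.789 CPM in CD24- cells and 8.97, 5.31 and 7.70 CPM in CD24+ cells, a 5.30-fold difference (log2 fold-change 2.40, SE 0.31, adjusted p = 1.30e-04 by edgeR). The call was lost only in the estimate from median coverage (log2 fold-change 0.13, adjusted p = 0.107, limma). Its neighbour Oasl1, known as a negative regulator of Irf7 translation, had 5.05, 4.74 and 2.59 CPM in CD24- cells and 2.67, 1.52 and 2.72 CPM in CD24+ cells. Its log2 fold-change was -0.88 (SE 0.32, adjusted p = 0.0447 by edgeR) with overlapping groups, and the call was lost under 11 of 16 alternatives, among them DESeq2 (adjusted p = 0.0616) and the loss of any library but CD24- replicate 3, with log2 fold-changes of -1.11 to -0.62 in those 5 cases. Oas1a, which makes the messenger that activates RNase L, had a log2 fold-change of 0.58 and was not called (adjusted p = 0.130, edgeR).

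The interferon-induced transmembrane proteins, which keep enveloped viruses from fusing with the cell, were all higher on the counts. Ifitm3 had 172, 170 and 129 CPM in CD24- cells and 324, 258 and 287 CPM in CD24+ cells (a log2 fold-change of 0.88, SE 0.12, adjusted p = 2.50e-04 by edgeR). Ifitm2 had 140, 149 and 113 CPM in CD24- cells and 222, 189 and 207 CPM in CD24+ cells (a log2 fold-change of 0.62, SE 0.11, adjusted p = 0.00118 by edgeR). Ifitm1 had 7.57, 7.30 and 4.96 CPM in CD24- cells and 13.7, 10.1 and 12.5 CPM in CD24+ cells (a log2 fold-change of 0.85, SE 0.20, adjusted p = 0.00525 by edgeR). In each of the 3 genes CD24- replicate 3 and CD24+ replicate 2 were the lowest of their groups, and the groups did not overlap. These genes lie side by side on chromosome 7 and are alike in sequence: 97% of the reads of Ifitm1 and 64.5% of those of Ifitm2 also matched transcripts of other genes, against 5.12% for Ifitm3. On reads that matched a single gene Ifitm2 had a log2 fold-change of 0.47 (adjusted p = 0.00429) and Ifitm3 one of 0.85 (adjusted p = 2.62e-04, edgeR). With each distinct sequence counted once none of the 3 was called, with log2 fold-changes of 0.23, 0.12 and 0.19 for Ifitm1, Ifitm2 and Ifitm3. In these short genes 698, 12632 and 16676 reads came from 47, 781 and 878 distinct sequences. Counting each sequence once can shrink a difference there by construction.

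Bst2, or tetherin, which holds budding virus at the cell surface, had 31.8, 34.2 and 26.6 CPM in CD24- cells and 54.3, 33.7 and 48.9 CPM in CD24+ cells. CD24+ replicate 2 lay within the CD24- range, and the log2 fold-change of 0.55 was called at an adjusted p of 0.0238 (edgeR). It was not called without CD24- replicate 1 or 3 or CD24+ replicate 1 or 3 (log2 fold-changes of 0.41 to 0.57), nor when identical sequences were counted a single time (0.29, adjusted p = 0.203, edgeR). Isg20, an exonuclease that degrades RNA, went the other way, with 52.2, 50.2 and 52.7 CPM in CD24- cells and 35.4, 23.9 and 26.4 CPM in CD24+ cells. It was 1.85-fold lower in CD24+ cells (log2 fold-change -0.89, SE 0.13, adjusted p = 4.00e-04 by edgeR) and its groups lay apart. Rsad2, or viperin, had between 7 and 34 reads a library and a log2 fold-change of 0.47 that was not called (adjusted p = 0.383, edgeR). Mx1 and Mx2, GTPases that trap viral particles, had 26 and 43 reads in all 6 libraries and were not tested.

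**Figure D3:**
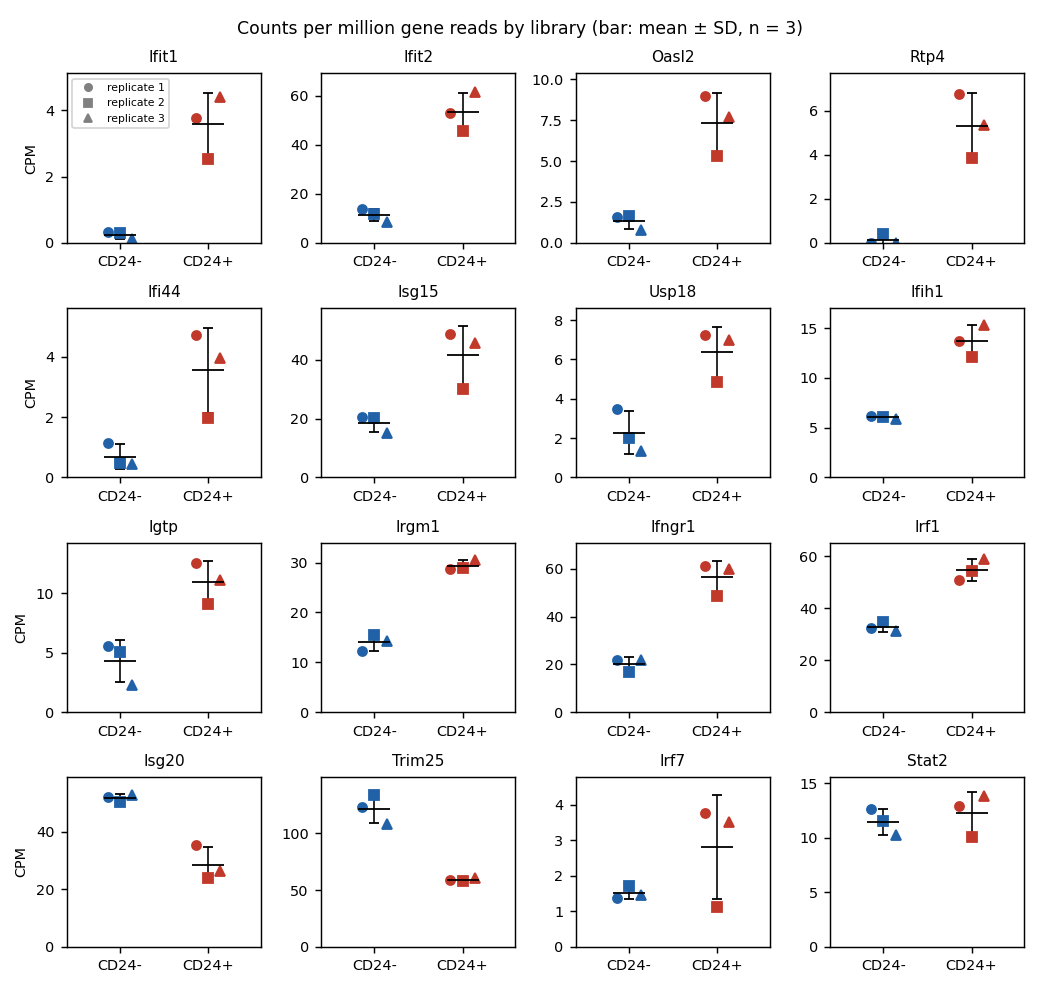
CPM of 16 interferon genes (y axes, linear and from 0) in the 3 CD24- and 3 CD24+ libraries, with the replicate number given by the marker and the mean ± SD (n = 3) in black. The 2 groups lie apart in the first 14 panels, higher in CD24+ for 12 genes and lower for Isg20 and Trim25, while Irf7 and Stat2 overlap and CD24+ replicate 2 (square) is often the lowest CD24+ point.

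The ubiquitin-like modifier Isg15 and the enzyme that removes it were higher together. Isg15, which is linked to proteins in infected cells, had 20.5, 20.3 and 15.1 CPM in CD24- cells and 48.8, 30.0 and 45.8 CPM in CD24+ cells (a log2 fold-change of 1.14, SE 0.19, adjusted p = 7.58e-04 by edgeR). Usp18, which removes Isg15 from proteins and dampens the type I receptor, had 3.47, 1.99 and 1.35 CPM in CD24- cells and 7.24, 4.86 and 6.97 CPM in CD24+ cells (a log2 fold-change of 1.45, SE 0.31, adjusted p = 0.00363 by edgeR). In both genes CD24+ replicate 2 was the lowest CD24+ library and still above every CD24- library, and Usp18 was not called in the estimate from median coverage (log2 fold-change 0.11, adjusted p = 0.126, limma).

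Trim25, the ubiquitin ligase that activates RIG-I, had the lowest log2 fold-change of the 41 genes. It had 123, 134 and 108 CPM in CD24- cells and 59.1, 57.5 and 60.9 CPM in CD24+ cells, 2.06-fold less in CD24+ cells (log2 fold-change -1.04, SE 0.09, adjusted p = 1.01e-05 by edgeR). The 3 CD24+ values were within 4 CPM of each other, and with any one library left out the log2 fold-change lay between -1.12 and -0.97. Its reads lay on chromosome 11 between 88860715 and 88881446 of mm9. Parp9, Parp14 and Dtx3l, which add ADP-ribose or ubiquitin and work together after interferon, had log2 fold-changes of 0.15, 0.34 and 0.04, and none was called, although Parp14 passed without CD24+ replicate 1 (0.43, adjusted p = 0.0219, edgeR).

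Of the 4 inducible GTPases, Igtp and Irgm1 were called higher and Gbp2 and Gbp3 were not called. That is 50% called, all higher, against 46.1% called and 23.8% higher among all genes. Igtp, of the IRG family, which acts at the vacuoles of intracellular parasites, had 5.58, 5.02 and 2.25 CPM in CD24- cells and 12.6, 9.09 and 11.2 CPM in CD24+ cells (a log2 fold-change of 1.32, SE 0.27, adjusted p = 0.00292 by edgeR). Irgm1, a regulator of that family, had 12.2, 15.5 and 14.3 CPM in CD24- cells and 28.8, 28.8 and 30.6 CPM in CD24+ cells (a log2 fold-change of 1.07, SE 0.12, adjusted p = 4.77e-05 by edgeR). Irgm1 was one of the few induced genes in which CD24+ replicate 2 was level with the other CD24+ libraries. Gbp2 and Gbp3, which attack such vacuoles and bacteria, had log2 fold-changes of 0.08 and 0.25 (adjusted p = 0.814 and 0.380, edgeR), and Gbp2 ranged from 8.11 to 18.2 CPM within the CD24- libraries. In the wider list of interferon genes, Gbp6 was called higher (log2 fold-change 0.74, adjusted p = 0.00163) and the IRG gene Irgm2 was not called (0.85, adjusted p = 0.0590, edgeR), both chosen after their values were seen. The Gbp6 value is uncertain, since 75.5% of its reads matched GENCODE M21 transcripts of another gene alone and 23.1% those of several genes.

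All 4 tested genes with other or less defined roles were called higher, against 23.8% of all genes, and Rtp4 was tested through its CD24+ libraries alone. Ifi44 had 1 CD24- library over the filter level, so that it too needed CD24+ libraries to be tested. Rtp4, a receptor-transporting protein that interferons induce, had 0, 4 and 0 reads in CD24- cells and 43, 68 and 102 reads in CD24+ cells. These are 0, 0.379 and 0 CPM against 6.76, 3.84 and 5.34 CPM, and the fitted log2 fold-change of 5.12 (SE 0.60, adjusted p = 6.74e-05 by edgeR) rests on the 4 reads of CD24- replicate 2. Without that library the other CD24- libraries are at 0 reads, and the mean of CD24+ cells was at least 15.7-fold higher, taking 3 reads per library as the floor. Without CD24- replicate 1 or 3 the fitted log2 fold-change was 4.59 or 4.61. Ifi44 had 1.16, 0.474 and 0.451 CPM in CD24- cells and 4.72, 1.98 and 3.98 CPM in CD24+ cells (a log2 fold-change of 2.28, SE 0.46, adjusted p = 0.00248 by edgeR), from 11, 5 and 4 reads against 30, 35 and 76. Of its reads 21.7% matched the transcripts of another gene instead, and on reads of a single gene its log2 fold-change was 2.68 (adjusted p = 0.00270, edgeR).

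Ifi35 and Xaf1 changed less. Ifi35, a leucine zipper protein, had 20.6, 19.2 and 20.96 CPM in CD24- cells and 34.3, 26.1 and 29.1 CPM in CD24+ cells (a log2 fold-change of 0.54, SE 0.12, adjusted p = 0.00471 by edgeR), and was not called in the estimate from median coverage (0.19, adjusted p = 0.133, limma). Xaf1, a protein that promotes apoptosis, had 3.26, 4.17 and 3.72 CPM in CD24- cells and 6.29, 4.57 and 6.55 CPM in CD24+ cells. Its log2 fold-change of 0.63 was called at an adjusted p of 0.0388 (edgeR) and lost the call under 9 of the 15 alternatives that gave it a value, DESeq2 (adjusted p = 0.0880) and the loss of any library but CD24+ replicate 2 among them, with log2 fold-changes of 0.49 to 0.72 in those 5 cases.

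Trim30a, a tripartite motif protein that restrains inflammatory signalling, had no annotation of its own, and RefSeq lists Trim30 as an earlier symbol of it. Reads annotated Trim30 gave 8.21, 8.34 and 4.85 CPM in CD24- cells and 56.9, 47.7 and 68.6 CPM in CD24+ cells. The groups lay 8.04-fold apart (log2 fold-change 3.01, SE 0.20, adjusted p = 1.29e-06 by edgeR), and CD24- replicate 3 and CD24+ replicate 2 were again the lowest of their groups. Reads of its close relatives could have been placed under the same annotation.

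**Figure D4:**
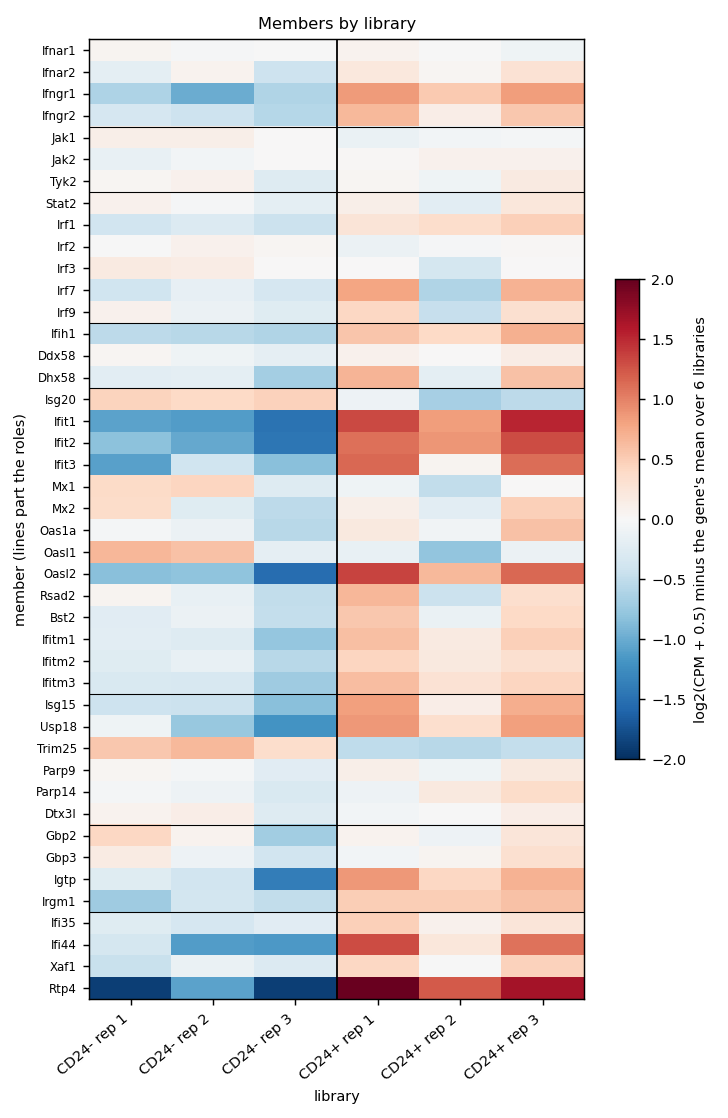
Each of the 44 annotated interferon genes (rows, parted by lines into their roles) in the 6 libraries (columns), coloured by log2(CPM + 0.5) minus the mean of the gene over the libraries, with the scale clipped at -2 and 2. The right side is redder for most induced genes, the rows of Isg20, Oasl1 and Trim25 run the other way, and the columns of CD24- replicate 3 and CD24+ replicate 2 are bluer than the others of their group.

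The libraries of a group differed from each other in a shared way. CD24+ replicate 2 held the lowest CD24+ value for 32 of the 41 tested interferon genes (78.0%) and for 16 of the 17 induced genes called higher (94.1%), against 35.4% of all tested genes. CD24- replicate 3 held the lowest CD24- value for 31 of the 41 genes (75.6%), against 43.5% of all genes. The summed CPM of the induced genes was 838, 840 and 683 in CD24- cells and 1162, 956 and 1118 in CD24+ cells, without overlap. Ifitm2 and Ifitm3 made up 312, 320 and 242 CPM of these sums in CD24- cells and 546, 447 and 494 CPM in CD24+ cells. Without them the sums were 526, 520.1 and 440.3 CPM and 616, 509 and 624 CPM, and CD24+ replicate 2 lay beneath CD24- replicates 1 and 2. The signalling genes summed to 842, 850 and 797 CPM and to 872, 841 and 904 CPM, with overlap. CD24+ replicate 2 was not the shallowest library, with 24515621 mapped reads. Repeats and structural RNA held 10.2% of its mapped reads, against 7.51% to 8.65% in the other libraries. The part of culture, handling, depth or read composition in this spread was not tested. Without CD24+ replicate 2, 25 of 42 tested interferon genes were called (59.5%, against 44.5% of all genes), 23 higher and 2 lower.

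**Figure D5:**
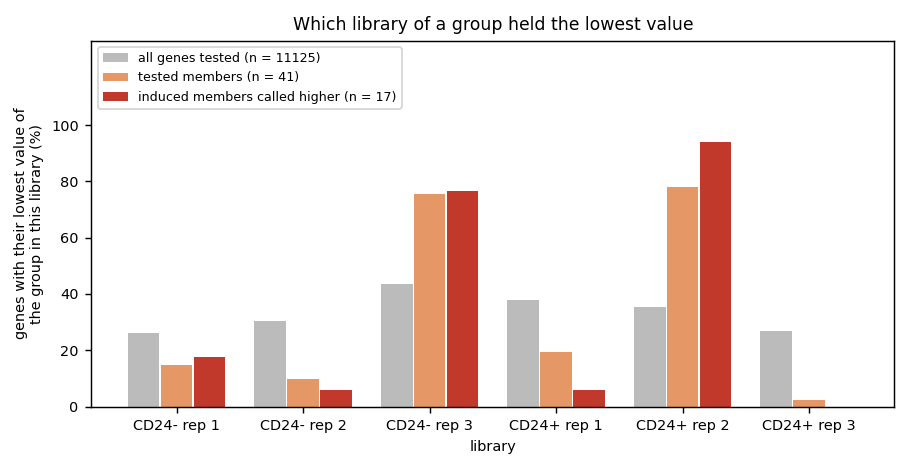
Share of genes (y axis, percent) whose lowest value of the group lay in each library (x axis), for all 11125 tested genes, the 41 tested interferon genes and the 17 induced genes called higher. CD24- replicate 3 and CD24+ replicate 2 stand above their grey bars, the latter at 94.1% for the induced genes called higher.

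Interferon transcripts themselves were almost absent. Of 21 mouse interferon genes looked up, 18 had no deposited read, and the other 3 (Ifna13, Ifne and Ifnz) had 19 annotated reads together. Among all mapped reads, whatever their annotation, 6 matched transcripts of 1 of those genes alone. A gene with 0 of the 98367174 mapped reads could have had a level of up to 0.0305 CPM of mapped reads, taking 3 reads as the limit that a count of 0 allows. This bound covers counting error only.

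Of a wider list of 75 other genes of interferon production, sensing and response, 55 named an annotation with reads and 46 were tested. With older symbols added 51 were tested, 22 called higher (43.1%, against 23.8% of all genes) and 9 lower (17.6%, against 22.3%). Of the 46, 19 were called higher (41.3%, against 23.8% of all genes) and 9 lower (19.6%, against 22.3%), with a median log2 fold-change of 0.34. This balance did not hold with a tested minimum log2 fold-change of 1, where 4 were higher (8.70%, against 6.32% of all genes) and 5 lower (10.9%, against 3.04%). Ifi47 and Ddx60, like Ifit1 and Rtp4, passed the filter through the CD24+ libraries alone. The largest increases were those of Ifi47, an inducible GTPase (log2 fold-change 3.27), Ddx60, a helicase that aids RIG-I (3.07), Sp100, a nuclear body protein (2.62), Slfn8, of the schlafen family (1.82), and Apol9b, an apolipoprotein L (1.26). Apol9b had 32.4, 32.0 and 30.5 CPM in CD24- cells and 88.7, 58.0 and 81.8 CPM in CD24+ cells, and Ifi47 had under 1 CPM in every CD24- library and 9.12, 5.70 and 7.91 CPM in the CD24+ ones. Of the Apol9b reads, 72.3% matched transcripts of several genes. The largest decreases were those of Slfn2, another schlafen gene (-2.85), Irf8, a transcription factor best known from myeloid cells (-1.997), Oas3, an oligoadenylate synthetase (-1.79), Ifi203, of the HIN-200 family (-1.72), and Ikbke, a kinase upstream of Irf3 and Irf7 (-1.38). Oas3 had 37.2, 35.1 and 26.6 CPM in CD24- cells and 8.49, 9.20 and 10.6 CPM in CD24+ cells, so this family held genes called in each direction.

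Markers of other cell types are given because leukocytes express many of these genes. Of 10 symbols of leukocyte markers, among them Emr1 and Adgre1 for the same gene, 7 had reads. Their summed level was between 77.4 and 114 CPM in CD24- cells and between 32.7 and 43.3 CPM in CD24+ cells. The pan-leukocyte gene Ptprc had 2 reads in all 6 libraries and Cd3e none, while Cd68 and Itgam were called lower in CD24+ cells. Of the Itgam reads, 57.5% matched transcripts of several genes and 33.6% those of Itgam alone. Cd14 was not called (adjusted p = 0.201, edgeR). It had 31.8, 32.9 and 30.5 CPM in CD24- cells and 33.7, 25.3 and 24.6 CPM in CD24+ cells, most of the CD24+ sum. Among 3 markers of plasmacytoid dendritic cells, which make type I interferon, Siglech had 1 read in all, Tcf4 was called higher and Il3ra lower, with sums of 109 to 146 CPM in CD24- cells and 204 to 269 CPM in CD24+ cells. These sums are almost entirely Tcf4, which had 126, 134 and 99.5 CPM in CD24- cells and 201, 230 and 267 CPM in CD24+ cells. The 3 endothelial markers summed to between 2.25 and 3.79 CPM in CD24- cells and between 0.681 and 1.89 CPM in CD24+ cells, with Cdh5 lower. The part of Tek in these sums is uncertain, since 76.2% of its reads matched transcripts of another gene alone and 4.76% those of Tek alone. The part of such cells in the values of the interferon genes was not tested.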

How the data were processed

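Messenger RNA of sorted Mvt1 cells was sequenced as single-end reads, from cDNA libraries made out of total RNA with a TruSeq RNA kit. After trimming to 47 nt, the authors merged identical reads, placed each sequence by exact match at 1 location with 1 annotation, and deposited the raw count of every mapped sequence for each library, not normalized and not pooled. The build is mm9 per the labels, and the source of the annotation is not given in the sources used here. Exact matching loses reads over exon junctions and sequence variants, and without strand in the counts, overlapping genes cannot be separated.

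Here counts were summed per annotated symbol. The 11125 genes that passed filterByExpr were tested with edgeR 4.0.16 in R 4.3.3 (TMM, glmQLFTest, Benjamini-Hochberg over all tested genes, threshold 0.05), with no covariate. Within groups, counts differed beyond sampling noise, with a chi-square over degrees of freedom of 1.75 for CD24- replicates 1 and 2 and of 9.69 to 15.9 for the other pairs. All were kept as replicates because the methods name a plate for each, which counts cannot show. Reads were also matched exactly to GENCODE M21 transcripts (GRCm38) to find those shared between genes. Alternatives included DESeq2 1.42.0 and an estimate from median coverage tested with limma 3.58.1. The edgeR step was tested on simulated data. Every interferon gene is named, with values in every library for those called and for the gene with the most reads in each role. Of other pathway genes, up to 5 of the largest increases and decreases are named, and Gbp6 and Irgm2 were added after their values were seen. The interferon genes, roles, pathway genes and markers were chosen with earlier results of these data known.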

Additional observations from a re-analysis of the deposited data

How the results depend on the processing

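The count of called interferon genes, their median log2 fold-change, the count of called pathway genes, the count of all called genes and Cd24a were recomputed under 16 alternatives. Apart from the exceptions that follow, no direction or call changed and counts stayed within 1.5 times. In the estimate from median coverage 12 interferon genes were called (10 higher, 2 lower of 34 tested, 35.3% against 26.6% of all genes) with a median log2 fold-change of 0.068, where 10 added to each value shrinks low genes by construction. Rtp4, Ifit1 and Ifi44, among the genes with the largest increases, had no value in it. There Cd24a had 1.37 in place of 2.91, Ifngr1 0.74, Ifit2 0.56, Irgm1 0.39 and Igtp 0.25, all still called. With a tested minimum log2 fold-change of 1, the stricter threshold itself left 6 interferon genes (Rtp4, Ifit1, Oasl2, Ifi44, Ifit2 and Ifngr1, all higher), 9 pathway genes (4 higher, 5 lower) and 1041 genes in all (703 higher, 338 lower). Library totals without TMM called 5162 genes (2524 higher, 2638 lower) against 5127 (2649 higher, 2478 lower). Counting distinct sequences can shrink differences in short genes with many reads by construction. Each distinct sequence counted once gave 3697 genes (2147 higher, 1550 lower), 19 of 42 interferon genes (17 higher, 2 lower, 45.2% called against 33.4% of all genes) and 2.47 for Cd24a. Under each of the 16 alternatives the share of interferon genes called higher (14.6% to 54.8%) lay above that of all genes (6.32% to 24.9%) and the share called lower (0% to 7.32%) beneath it (3.04% to 23.7%). The alternative filter of at least 1 CPM in 3 libraries kept the same 11125 genes and so repeated the main result. Without any one library the called interferon genes numbered 19 to 25, the called pathway genes 25 to 33 and all called genes 4069 to 5358, the median log2 fold-change lay between 0.44 and 0.74, and Cd24a between 2.71 and 3.05.

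Of 23 called interferon genes, 5 kept their call under every alternative that gave them a value, namely Ifi44, Ifit1, Ifit2, Ifngr1 and Rtp4. Ifi44, Ifit1 and Rtp4 had a value under 15 of the 16 alternatives and none in the estimate from median coverage, where other calls were lost. Ifit1 and Rtp4 also entered the test through the CD24+ libraries alone, and Ifi44 needed CD24+ libraries to enter it. Of 647 values for single interferon genes, 53 lost a call, 6 gained one and 12 changed sign, the last only in genes that were not called. With distinct sequences counted once Ifnar1 had 0.045. In the estimate from median coverage Ifnar2 had -0.042, Stat2 -0.078 and Gbp2 -0.041. Without any one library Ifnar1 lay between -0.070 and 0.0044, Tyk2 between -0.013 and 0.15, Stat2 between -0.038 and 0.22, Dtx3l between -0.068 and 0.11, and Gbp2 between -0.18 and 0.35, with the sign changes without CD24- replicate 3 or CD24+ replicate 3. Other causes of these changes were not tested.

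Replicate numbers occur in both groups, yet same-numbered plates did not deviate together, with correlations of their deviations of 0.014, -0.25 and -0.31 for numbers 1, 2 and 3. With a replicate block 21 interferon genes (19 higher, 2 lower), 26 pathway genes and 4493 genes in all were called, the median log2 fold-change was 0.55, Cd24a had 2.94, and Oasl1 and Xaf1 lost their calls. Depth limits the genes with few reads, since 3 reads correspond to between 0.157 and 0.462 CPM in a library.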
